A study of Mus musculus with 6 samples.

Results

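Galectins are secreted and cytosolic lectins, and Lgals3bp is a secreted glycoprotein that several of them bind. The transcripts of *Lgals1*, *Lgals3*, *Lgals4*, *Lgals8*, and *Lgals9*, and of *Lgals3bp*, were followed in monocytes that had infiltrated the CNS of mice with experimental autoimmune encephalomyelitis (EAE), a model of multiple sclerosis, under treatment with recombinant IFN-β (rIFN-β). These 6 genes were chosen by name, with earlier results of these data known, from the 54232 genes of the files, and 5 of the 6 passed the filter on low counts, as did 11254 genes in all. *Lgals9* and *Lgals3bp* were upregulated in WT over *Ifnar1*-/- monocytes, by 2.51-fold and 4.53-fold. *Lgals1*, *Lgals3*, and *Lgals8* did not pass the test, and *Lgals4* was close to the detection limit.

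GFP+ recipient mice (n = 3) were irradiated with 2 doses of 550 Rad given 12 h apart. They were reconstituted with BM of WT (CD45.1) and *Ifnar1*-/- (CD45.2) donors mixed in equal parts, so both genotypes developed within each host. EAE was induced 6 to 7 weeks later, and all recipients received rIFN-β at 30000 IU per day. At the peak of disease, donor monocytes (GFP-CD45+CD11b+Ly6ChiLy6G-) were sorted by their CD45 variant into 3 WT and 3 *Ifnar1*-/- samples for RNA-seq. *Ifnar1*-/- cells lack a subunit of the type I IFN receptor in every cell, from germline deletion, and no group without rIFN-β was sequenced. The receptor genotype therefore cannot be told apart from other differences between the donor strains, and whether same-numbered libraries came from one mouse is not given in the sources used here. Where libraries share mice, p-values measure the spread between these samples only.

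The 5 galectins followed here bind β-galactosides through a conserved carbohydrate recognition domain. Lgals1 is a prototype galectin with a single such domain, Lgals3 is the chimera type with a long N-terminal tail, and Lgals4, Lgals8, and Lgals9 are tandem-repeat galectins that carry a pair of different domains on one chain. In immune cells they crosslink glycoproteins at the surface and bind glycans exposed on damaged endosomes and lysosomes. Lgals3bp (Mac-2 binding protein) carries a scavenger receptor cysteine-rich (SRCR) domain. In GRCm38, *Lgals9* lies at chr11:78962974-78984946 and *Lgals3bp* at chr11:118392751-118402092, both on the minus strand. *Lgals1* lies at chr15:78926725-78930465 and *Lgals3* at chr14:47367751-47386160 on the plus strand, *Lgals8* at chr13:12439415-12464944 on the minus strand, and *Lgals4* at chr7:28833854-28841708 on the plus strand.

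Type I IFN activates ISGF3, a transcription factor complex that binds the IFN-stimulated response element (ISRE), so the promoters of the members were scanned for the ISRE core (GAAA, any 2 bases, and GAAA) on both strands. RefSeq promoters of 300 bases (250 before the start and 50 after it, GRCm38.p6) were held for 5 of the 6 members, not for *Lgals1*. The *Lgals9* promoter was the only member promoter with the ISRE core. It held 2 matches, 1 of which begins 55 bases before the RefSeq start and the other at base 16 after it. Of 32851 promoters of the same length, 3.44% held at least 1 match and 0.225% held 2 or more. A match is a description of these letters, and no binding was measured. The upstream stretch of *Lgals9* (chr11:78984947-78985174, minus strand) and 30 bases around the downstream match (chr11:78984890-78984919, minus strand) are shown because they hold these matches, which are in capitals and read GAAAAAGAAA and GAAACAGAAA on the other strand.
Lgals9 upstream: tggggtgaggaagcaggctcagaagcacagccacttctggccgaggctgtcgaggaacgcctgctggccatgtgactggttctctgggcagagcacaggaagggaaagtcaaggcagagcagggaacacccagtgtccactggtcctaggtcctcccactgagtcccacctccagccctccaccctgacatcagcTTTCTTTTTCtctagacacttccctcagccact
Lgals9 downstream match: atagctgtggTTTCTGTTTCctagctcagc

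No member promoter held the IFN-γ-activated site TTCNNNGAA, which was present in 8.30% of all promoters. A shorter motif, AAANNGAAA, which is contained in the ISRE core and is the half-site of IRF factors, was searched after the results had been seen. It occurred in 10.6% of promoters, and in those of *Lgals9*, where it overlaps both ISRE cores, and *Lgals3bp*. The *Lgals3bp* match (capitals, chr11:118401955-118401984, minus strand) begins 15 bases before the RefSeq start, which lies 133 bases inside the longer GENCODE transcript. The stretch upstream of both starts (chr11:118402093-118402209, minus strand) is shown beside it and held none of the 3 motifs.
Lgals3bp upstream: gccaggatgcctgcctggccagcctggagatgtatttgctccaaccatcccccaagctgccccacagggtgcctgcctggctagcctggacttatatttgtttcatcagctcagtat
Lgals3bp match: tgttttctgaAAATCGAAActaggtgaggt

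The libraries held 7321380, 4531782, and 4946747 expected counts in WT 1 to 3 and 6916101, 5811323, and 5442568 in *Ifnar1*-/- 1 to 3. Expected counts are RSEM's estimate of the read pairs of each gene, and normalized CPM divide them by a library size corrected with TMM factors. A count of 3 corresponded to 0.427 to 0.638 normalized CPM, which is the level that a count of 0 allows. At these depths every member but *Lgals4* was far above that level in every library. The targeted gene, *Ifnar1*, which encodes the receptor subunit, had 153, 126, and 111 normalized CPM in WT and 110, 102, and 109 in *Ifnar1*-/- libraries. Its whole-gene level did not pass the test (log2 fold change 0.28, adjusted p = 0.360 by edgeR's quasi-likelihood test with Benjamini-Hochberg adjustment over 11254 genes). The mean length of its transcripts, weighted by their abundance, did separate the groups. It was 3552, 3198, and 3307 bases in WT and 2219, 2284, and 2471 bases in *Ifnar1*-/- libraries, without overlap.

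*Lgals3bp* had the larger difference of the upregulated pair. Its level in normalized CPM was 700, 464, and 537 for WT and 55.9, 145, and 175 for *Ifnar1*-/- monocytes. Every WT library was above every *Ifnar1*-/- library, and *Ifnar1*-/- 1 stood lowest. The means were 567 ± 121 and 125 ± 61.8 (SD, n = 3), a log2 fold change of 2.18 (SE 0.35, edgeR adjusted p = 0.00908). Without *Ifnar1*-/- 1 the log2 fold change was 1.84 (edgeR adjusted p = 0.00519). The spread among *Ifnar1*-/- libraries was 3.13-fold between the highest and the lowest. *Ifnar1*-/- 1 was the lowest of its group for 8 of 15 reference IFN-stimulated genes (ISGs) and for 34.9% of all genes tested. It was also the highest of its group for 5 of these 15 and for 34.2% of all genes tested.

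*Lgals9*, a tandem-repeat galectin known as a ligand of TIM-3 on T cells, was at 243, 176, and 150 normalized CPM in the WT samples, against 75.9, 78.8, and 72.3 in the *Ifnar1*-/- samples. The *Ifnar1*-/- values lay close together, and the lowest WT library was still above all of them. The means were 190 ± 47.9 and 75.7 ± 3.27 (SD, n = 3), a log2 fold change of 1.33 (SE 0.18, edgeR adjusted p = 0.00354). By normalized CPM, WT 1 had the highest *Lgals9* and *Lgals3bp* of all libraries. It was also the highest WT library for 15 of the 15 reference ISGs and for 36.1% of all genes tested. By TPM, *Lgals9* was highest in WT 2 (137) and *Lgals3bp* in WT 3 (270). Without WT 1 the log2 fold change of *Lgals9* was 1.12 (edgeR adjusted p = 0.00211) and that of *Lgals3bp* was 2.01 (edgeR adjusted p = 0.0164).

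Differential expression, an adjusted p of at most 0.05 with at least a 1.5-fold change, was reached by 240 of 11254 genes, of which 188 were higher and 52 lower in WT. With an offset for effective transcript length these counts were 162 higher and 14 lower. The number of lower genes was 26, 41, and 7 without WT 1, 2, and 3, and 7, 25, and 10 without *Ifnar1*-/- 1, 2, and 3. The background for 2 of 5 tested members upregulated was thus 1.67% of all tested genes, and for 0 of 5 downregulated it was 0.462%. By log2 fold change *Lgals3bp* was at rank 57 and *Lgals9* at rank 119 of the 188 upregulated genes. The median log2 fold change over all tested genes was -0.01.

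**Figure D1:**
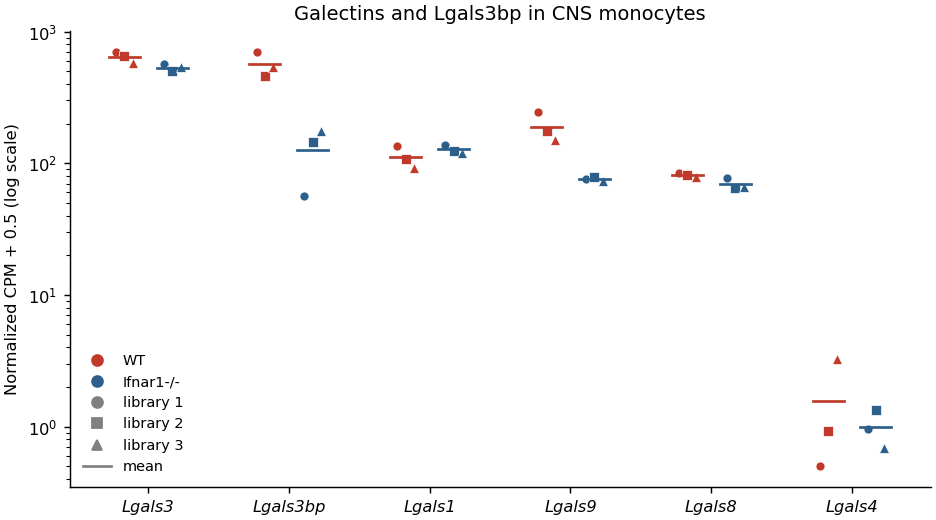
Level of each gene in each library, as normalized CPM plus 0.5 on a log axis, with WT in red, *Ifnar1*-/- in blue, marker shape for the library number, and a horizontal line at each group mean (n = 3). *Lgals9* and *Lgals3bp* were higher in every WT library, while *Lgals4* was near the detection limit in both groups.

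*Lgals3*, the chimera galectin known in macrophages as Mac-2, had the highest TPM of the galectins in every library. Its normalized CPM was 696, 657, and 574 in WT and 565, 500, and 534 in *Ifnar1*-/- libraries. The lowest WT library exceeded the highest *Ifnar1*-/- library by a small margin, and the difference did not pass the test (log2 fold change 0.27, SE 0.15, edgeR adjusted p = 0.383). *Lgals8*, a tandem-repeat galectin that binds glycans on ruptured vesicles, had 83.8, 80.3, and 78.2 normalized CPM in WT and 76.4, 64.7, and 66.0 in *Ifnar1*-/- libraries. The groups again did not overlap and the difference again did not pass the test (log2 fold change 0.23, SE 0.13, edgeR adjusted p = 0.409). *Lgals8* overlaps *Heatr1*, a ribosome biogenesis gene on the opposite strand (log2 fold change -0.35, edgeR adjusted p = 0.231). The strand setting of the counting is not given in the sources used here, so reads of the overlap may not be told apart.

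*Lgals1*, a prototype galectin abundant in many leukocytes, had 135, 106, and 92.0 normalized CPM in WT and 138, 123, and 120 in *Ifnar1*-/- libraries. The groups overlapped, and its log2 fold change was -0.19 (SE 0.17, edgeR adjusted p = 0.590). WT normalized CPM was thus above *Ifnar1*-/- without overlap for 4 of 5 tested members, where 11.1% of all tested genes showed this, and for none was it below without overlap, where 12.2% did. The exact two-sided permutation test gave p = 0.1 for each of these 4, the smallest p that 3 against 3 libraries can give. By TPM the groups were separate for *Lgals3bp* and *Lgals9* and overlapped for *Lgals3* and *Lgals8*.

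*Lgals4*, a tandem-repeat galectin of the intestinal epithelium, had 0, 2, and 14 expected counts in WT and 3, 5, and 1 in *Ifnar1*-/- libraries. It did not pass the filter, and edgeR without a filter gave a log2 fold change of 0.99 (adjusted p = 0.701). The single library with more than 5 counts was WT 3. Intestinal epithelial markers (*Vil1*, *Epcam*, *Cdh17*, and *Krt20*) summed to at most 0.592 normalized CPM in any library. Of the other galectin genes, *Lgals7*, *Lgals12*, and *Grifin* had 0 counts in all 6 libraries, *Lgals2* had 1 count in *Ifnar1*-/- 3 only, and *Lgalsl* had 2 to 6 counts per library. *Lgals6*, a close copy of *Lgals4* in some strains, had no match in the annotation used here. *Lgals6* was therefore not measured. Transcripts of the rest of these other galectin genes were not detectable above the floor of 3 counts, or only just so, at this depth.

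**Figure D2:**
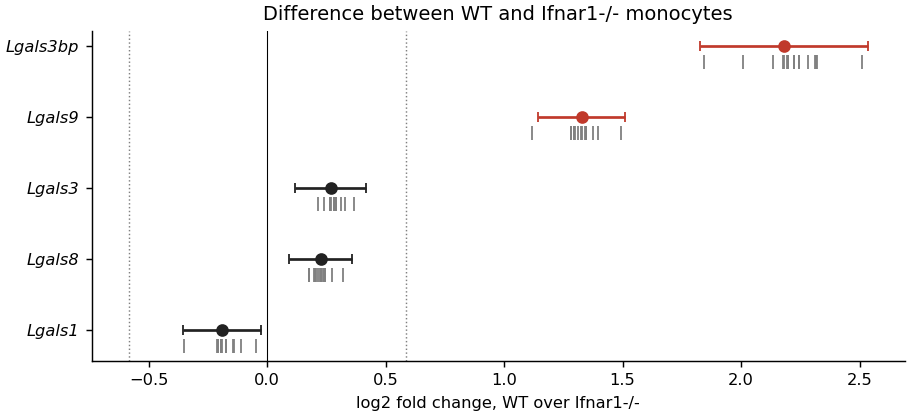
log2 fold change of WT over *Ifnar1*-/- monocytes for the 5 tested genes, with points and bars for the edgeR estimate ± SE (red, passed the test) and grey ticks for its value under each of 17 other settings. Dotted lines mark a 1.5-fold change in either direction; ticks of *Lgals3bp* ran from 1.84 to 2.51 and those of *Lgals9* from 1.12 to 1.49.

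Levels of different genes were compared by TPM, which corrects for transcript length. In each of the 3 WT libraries the order of TPM was *Lgals3*, *Lgals3bp*, *Lgals1*, *Lgals9*, *Lgals8*, and *Lgals4*. Mean TPM in WT was 652 ± 98.6 for *Lgals3*, 245 ± 22.5 for *Lgals3bp*, 166 ± 13.2 for *Lgals1*, 129 ± 9.91 for *Lgals9* (SD, n = 3), and *Lgals8* had 38.7 to 82.0. In *Ifnar1*-/- monocytes *Lgals3* (529 ± 23.0) and *Lgals1* (187 ± 17.6) led in every library. *Lgals3bp* (57.7 ± 28.7), *Lgals8* (53.1 ± 7.05), and *Lgals9* (52.5 ± 7.22) followed at levels that did not differ beyond their spread. *Lgals3* was a major transcript, at rank 77 to 154 of 21983 protein-coding genes by TPM across the libraries. The rank of *Lgals3bp* ran from 241 in WT 1 to 2738 in *Ifnar1*-/- 1.

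The share of each galectin in the summed TPM of the 5 galectin genes gave a comparison within each library, since it does not depend on the library's scaling. *Lgals9* made up 14.9%, 12.0%, and 11.7% of galectin TPM in WT and 5.93%, 6.96%, and 6.21% in *Ifnar1*-/- libraries. The *Lgals9* share was higher in every WT library, by 6.49 percentage points on average (12.9 ± 1.81 against 6.37 ± 0.534, SD, n = 3, exact two-sided permutation p = 0.1). The *Lgals1* share was 16.5% ± 1.38 in WT and 22.8% ± 0.713 in *Ifnar1*-/- monocytes and did not overlap either (exact permutation p = 0.1). The 2 shares are parts of the same sum and are not independent. *Lgals3* took 64.4% ± 1.70 and 64.4% ± 1.45 of galectin TPM, with overlapping groups. The summed galectin TPM was 876, 1145, and 1011 in WT and 829, 873, and 766 in *Ifnar1*-/- libraries, of which the lowest WT value exceeded the highest *Ifnar1*-/- value by less than the SD of either group.

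**Figure D3:**
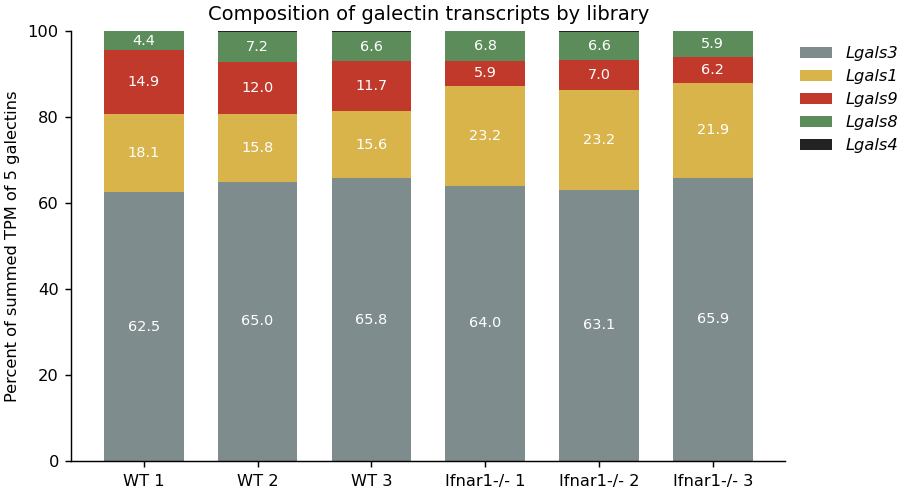
Percent of the summed TPM of *Lgals1*, *Lgals3*, *Lgals4*, *Lgals8*, and *Lgals9* that each gene took in each library, as stacked bars from 0 to 100. The *Lgals9* share was 11.7% to 14.9% in WT and 5.93% to 6.96% in *Ifnar1*-/- libraries, while *Lgals3* held 62.5% to 65.9% in all 6.

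*Lgals3bp* and *Lgals9* were also compared with each other within each library. The log2 ratio of their normalized CPM was 1.53, 1.40, and 1.84 in WT and -0.44, 0.88, and 1.27 in *Ifnar1*-/- libraries. The groups did not overlap, and the means differed by 1.02 on the log2 scale (exact two-sided permutation p = 0.1). Without *Ifnar1*-/- 1 this difference was 0.51. The *Ifnar1*-/- libraries spread widely here, and *Ifnar1*-/- 1 was the only library with less *Lgals3bp* than *Lgals9*, also by TPM. The ratio of *Lgals3bp* to its binding partner *Lgals3*, by TPM, was 0.433, 0.306, and 0.406 in WT and 0.0463, 0.133, and 0.149 in *Ifnar1*-/- libraries. All 10 ratios among the 5 tested members were computed after the results had been seen. By normalized CPM, each but that of *Lgals3* to *Lgals8* was without overlap. Each of these had a p of 0.1 by the exact permutation test, or 0.111 after Benjamini-Hochberg adjustment. Most of them contain *Lgals3bp* or *Lgals9*, so they are not separate from the upregulation of those genes. How often ratios of other genes separate the groups was not computed. By TPM the ratio of *Lgals8* to *Lgals1* overlapped (0.244, 0.452, and 0.424 in WT and 0.294, 0.286, and 0.268 in *Ifnar1*-/- libraries). The log2 ratio of *Lgals3* to *Lgals8* was 3.05, 3.03, and 2.87 in WT and 2.89, 2.95, and 3.02 in *Ifnar1*-/- libraries, which overlapped (exact permutation p = 0.6).

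The mix of transcripts of each gene was read from the mean transcript length that RSEM reports. *Lgals3bp* has 5 annotated transcripts of 335 to 2330 bases. Its mean length was 2286, 2288, and 2237 bases in WT and 2152, 2185, and 2202 bases in *Ifnar1*-/- libraries. WT transcripts were longer in every library, by 90.4 bases on average (2270 ± 29.2 against 2180 ± 25.6, SD, n = 3, exact two-sided permutation p = 0.1). Of 8985 genes whose mean length varied, 6.01% had longer WT transcripts without overlap. *Lgals9*, with 4 annotated transcripts of 742 to 1586 bases, had mean lengths of 1510 ± 2.17 and 1504 ± 13.1 bases that overlapped. The mean length of *Lgals8*, which has 10 annotated transcripts, varied most between WT libraries (1728, 1201, and 1396 bases) and overlapped with *Ifnar1*-/- (1351, 1311, and 1459 bases). *Lgals1* and *Lgals3* overlapped as well. The difference between length and effective length, a measure of the fragment length of a library, was 195 to 205 bases in WT and 173 to 185 bases in *Ifnar1*-/- libraries, and its part in the length differences was not tested.

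**Figure D4:**
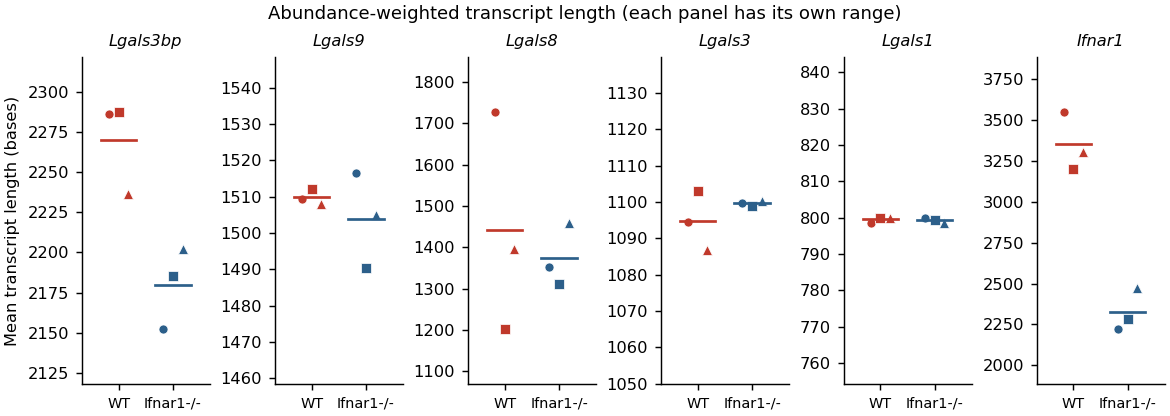
Abundance-weighted mean transcript length in bases of the 5 tested genes and of *Ifnar1* in each library, with WT in red, *Ifnar1*-/- in blue, and a line at each group mean (n = 3); each panel has its own axis range, which does not start at 0. The groups did not overlap for *Lgals3bp* (2237 to 2288 against 2152 to 2202 bases) or for *Ifnar1*.

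Other genes of the galectin system were taken from lists by function. Among 21 binding partners of galectins, which are glycoproteins, receptors, and intracellular ligands, 17 were tested and 0 passed the test by edgeR, with a median log2 fold change of -0.01. The most abundant was *Fn1*, fibronectin. The largest log2 fold change, 0.48, was that of *Mertk*, a receptor for apoptotic cells (84.3 ± 4.38 against 60.7 ± 19.5 normalized CPM, edgeR adjusted p = 0.264). *Havcr2*, which encodes TIM-3, had means of 84.0 and 80.7 normalized CPM. Among 31 enzymes, chaperones, and transporters that build, branch, or cap the galactose-bearing glycans bound by galectins, mostly on N-glycans, 27 were tested and 0 passed, with a median of 0.08. *B4galt1*, a galactosyltransferase, was the most abundant of them by TPM. *Gcnt1*, which starts core branching of O-glycans, had 69.5 ± 9.06 normalized CPM in WT and 101 ± 16.6 in *Ifnar1*-/- monocytes (log2 fold change -0.54, edgeR adjusted p = 0.131), and *B4galt5*, another galactosyltransferase, had 94.9 ± 23.6 and 60.4 ± 13.8 (log2 fold change 0.65, edgeR adjusted p = 0.155).

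Of 13 other genes with an SRCR domain, 2 were tested and 0 passed. They were *Msr1*, a macrophage scavenger receptor (log2 fold change -0.37, edgeR adjusted p = 0.251), and *Cd6*, a T cell glycoprotein (log2 fold change 1.80, edgeR adjusted p = 0.0619). Among 45 genes of endolysosomal damage and lysophagy, the response in which cytosolic galectins take part, 41 were tested and 0 passed, with a median of 0.02. *Gabarap*, which attaches to autophagic membranes, was the most abundant by TPM. The smallest p-values in that list were those of *Tecpr1*, a tether of autophagosomes (log2 fold change 0.76, edgeR adjusted p = 0.0842), and *Chmp4b*, an ESCRT-III subunit (log2 fold change 0.72, edgeR adjusted p = 0.101). Over these 4 lists, 87 genes were tested by edgeR, 0 passed, and 12 had an unadjusted p below 0.05, against 240 and 2006 of all 11254 genes tested. DESeq2 called *Chmp4b* only, limma-voom called 0 of the 87, and edgeR without a filter called *B4galt5*, *Cd6*, *Chmp4b*, and *Tecpr1*.

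Of 15 ISGF3 components and reference ISGs, 13 were upregulated in WT, with a median log2 fold change of 3.76 over the 15. *Irf9*, a subunit of ISGF3, did not pass (log2 fold change 0.50, edgeR adjusted p = 0.0842). *Stat2*, also a subunit of ISGF3, rose from 36.7 ± 6.72 to 150 ± 34.6 normalized CPM (log2 fold change 2.04). *Ifit2*, an inhibitor of translation of foreign RNA, had the smallest p of the list, at 444 ± 105 normalized CPM in WT and 19.4 ± 1.43 in *Ifnar1*-/- monocytes (log2 fold change 4.52). It was followed by *Usp18*, a negative regulator of the receptor (4.09), *Irf7*, a transcription factor that amplifies type I IFN expression (4.08), and *Rtp4* (3.92). *Lgals9* had a smaller log2 fold change than each of the 13 upregulated reference genes, and *Lgals3bp* a larger one than 2 of them, *Stat2* and *Bst2*.

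**Figure D5:**
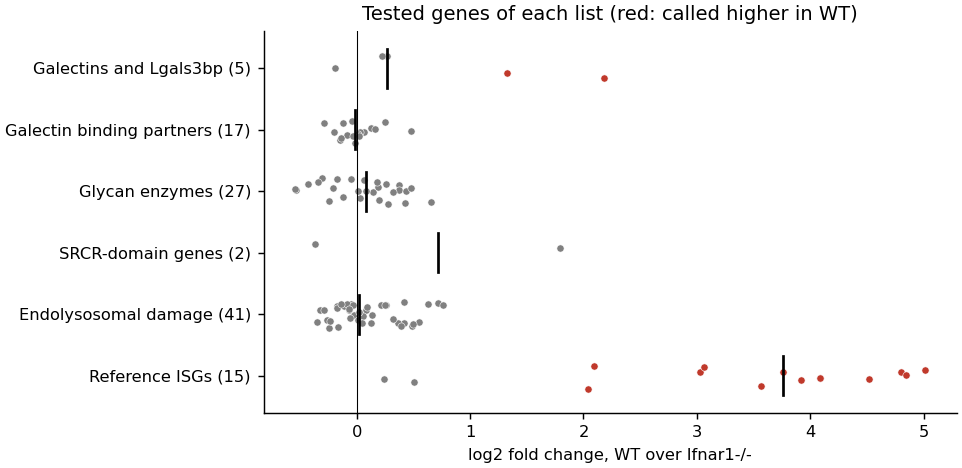
log2 fold change of WT over *Ifnar1*-/- for each tested gene of 6 lists, with the number tested in brackets, red for genes that passed the test as higher in WT, grey for genes that did not pass, and a black line at the list median; vertical jitter carries no value. No gene of the 4 galectin-related lists passed, and their medians were -0.01, 0.08, and 0.02, and 0.71 for the SRCR list of 2 tested genes, whereas 13 of 15 reference ISGs lay above 2.

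The neighbouring genes were examined within 200 kb of each member. None of the 41 tested neighbours passed the edgeR test, and 11 of them, as 2006 of all 11254 genes, had an unadjusted p below 0.05. On both sides of *Lgals9* the nearest tested genes were *Nos2*, the inducible nitric oxide synthase, 2.72 kb away (628, 765, and 481 normalized CPM in WT and 220, 807, and 321 in *Ifnar1*-/- libraries, log2 fold change 0.47, edgeR adjusted p = 0.576), and *Ksr1*, a scaffold of the MAP kinase cascade, 28.5 kb away (log2 fold change 0.15). Those beside *Lgals3bp* were *Cant1*, a nucleotidase of the Golgi, 4.2 kb away (log2 fold change 0.73, edgeR adjusted p = 0.0657), and *Timp2*, a metalloproteinase inhibitor, 37.0 kb away (log2 fold change 0.17).

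Over the 6 libraries, the genes with the pattern most like *Lgals9* were *Tlr9* (Pearson r = 0.995), the endosomal receptor for DNA, *Zcchc2* (0.994), and *Faap100* (0.992). Those most like *Lgals3bp* were *Egln2* (0.992), *Fstl1* (0.989), and *Sphk2* (0.989). For *Lgals3* they were *Marcks*, *Neurl3*, and *Slc8b1* (0.990 to 0.993), for *Lgals8* *Tmem63b*, *Jup*, and *Trim30c* (0.993 to 0.995), and for *Lgals1* *Fcgr2b*, *Gm42660*, and *Gm4735* (0.986 to 0.993). These correlations are the highest among 11254 genes over 6 points that form a pair of groups, so they describe these libraries only.

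The sorted cells had the markers of monocytes. Each of 8 monocyte markers was tested, and *Lyz2*, lysozyme, was the most abundant at 3975 ± 686 normalized CPM in WT and 4718 ± 802 in *Ifnar1*-/-. *Ly6c2*, which encodes the Ly6C antigen of the sort gate, was upregulated in WT (718 ± 74.6 against 271 ± 83.9, log2 fold change 1.40, edgeR adjusted p = 0.00957), and *Ccr2* had means of 643 and 989 normalized CPM. Markers of T cells moved with the groups. The 8 markers summed to 125, 93.3, and 93.4 normalized CPM in WT and 50.9, 55.1, and 45.4 in *Ifnar1*-/- libraries, of which *Il7r* was the most abundant gene (70.8 against 39.7) and *Cd3e* was at 5.68 against 1.70. None of the 6 T cell markers tested passed the edgeR test. The part of T cell RNA in the galectin results was not tested.

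Among other cell types, 4 endothelial markers summed to 39.8, 13.2, and 12.2 normalized CPM in WT and 10.2, 7.96, and 7.36 in *Ifnar1*-/- libraries, and *Kdr*, a VEGF receptor, was upregulated (11.4 ± 8.30 against 1.34 ± 0.482, edgeR adjusted p = 0.0143). *Pecam1*, the most abundant of them by TPM, had 16.8, 5.53, and 4.54 in WT and 8.09, 5.93, and 5.70 in *Ifnar1*-/- libraries, and without *Kdr* the sums of the other 3 markers overlapped (18.9, 6.16, and 6.12 in WT and 9.01, 6.10, and 6.44 in *Ifnar1*-/-). Astrocyte markers summed to 20.3, 18.9, and 26.3 in WT and 4.89, 15.4, and 17.8 in *Ifnar1*-/-, led by *Slc1a2*, and plasmacytoid dendritic cell markers to 4.41, 4.68, and 6.71 and 3.21, 2.20, and 2.76. Among the latter *Siglech* was the most abundant by TPM (1.37 normalized CPM in WT and 0.561 in *Ifnar1*-/-) and *Ccr9* had the highest mean normalized CPM (1.85 and 1.75). B cell markers, led by *Cd79b*, summed to 1.71, 1.49, and 1.58 in WT and 0.305, 0.678, and 1.10 in *Ifnar1*-/- libraries. The sums of these 4 lists did not overlap between the groups, and their part in the results was not tested. Neutrophil markers, led by *Ngp*, summed to 258, 437, and 1349 in WT and 483, 507, and 1200 in *Ifnar1*-/- libraries. The sums set the libraries numbered 3 apart from the others in both groups, but not every marker did so. *Ngp*, *Camp*, *Ltf*, *Retnlg*, and the scarce *Ly6g* were highest in the libraries numbered 3 of both groups. *Mmp8* was highest in those numbered 2 (126, 173, and 166 in WT and 146, 212, and 192 in *Ifnar1*-/-). *Cxcr2* was highest in WT 2 and in *Ifnar1*-/- 3. Without WT 3 the log2 fold change was 2.24 for *Lgals3bp* and 1.49 for *Lgals9*, and without *Ifnar1*-/- 3 it was 2.51 and 1.31. Microglia, dendritic cell, and oligodendrocyte markers overlapped between the groups, with sums of at most 58.1 normalized CPM. In these sorted samples, more cells that express a gene and more RNA per cell cannot be told apart.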

How the data were processed

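The 3 samples per genotype were analysed from gene-level RSEM tables. The authors mapped paired-end reads to GRCm38; STAR 2.6.0c and RSEM 1.2.31 are named in the submitters' processing notes. For each gene the authors deposited an expected count, estimated by RSEM from reads divided among the genes they fit and not normalized. They also deposited TPM and FPKM, which the authors scaled for length and depth with RSEM, and a mean and effective transcript length. The labels name a SMARTer Stranded Pico kit and the paper a TruSeq Stranded kit, and whether counting used strand is not given in the sources used here. FPKM served only as an alternative for the shares.

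Expected counts were rounded to whole numbers. GENCODE M21 matched 54165 of 54232 gene identifiers, and 67 were unmatched. Genes were filtered with filterByExpr (minimum count 10) and tested without a block with edgeR 4.0.16 in R 4.3.3 (TMM, quasi-likelihood test, Benjamini-Hochberg over all 11254 genes tested). Exact permutation tests were two-sided, for single genes on log2 of normalized CPM plus 0.5. Counting floors cover counting error only. Correlations used the same log2 values.

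The members and lists were chosen with earlier results of these data known. Genes were named if they were members, other galectins, *Ifnar1*, called or most abundant in a list (at most 4 called), nearest tested neighbours of a called member, or the 3 genes of highest correlation; other genes were added by hand once values were known. Some genes of the lists are not reported by name here. Alternatives were DESeq2 1.42.0, limma-voom and limma 3.58.1 on log2 TPM, RLE normalization, other filters, removal of mitochondrial and rRNA genes, a length offset, an adjusted p alone, a replicate block, and leaving out each library. The motif AAANNGAAA and the ratios were added after the results were seen.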

Additional observations from a re-analysis of the deposited data

How the results depend on the processing

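Of 162 values recomputed under another setting, 156 were classed as unchanged. For fold changes of members this meant the same direction and the same side of the threshold. For the number of differentially expressed genes it meant a number within 1.5-fold of that of the main test. For shares and lengths it meant a move within the spread of replicates, and some of these changed sign within that spread. The number of differentially expressed genes was 240 by edgeR, 419 by DESeq2 (314 higher and 105 lower in WT), and 872 without a filter on low counts (610 and 262), and leaving out 1 library each gave 119 to 245. It fell to 148 without WT 3, to 119 without *Ifnar1*-/- 1, and to 120 without *Ifnar1*-/- 3. *Lgals9* and *Lgals3bp* remained upregulated in every setting except 1, in which *Lgals3bp* did not pass. There, limma on log2(TPM + 1) with no filter gave *Lgals3bp* a log2 fold change of 2.22 with an adjusted p of 0.176. The reason was not tested, and edgeR with no filter gave it an adjusted p of 1.99e-27. Leaving out 1 library each gave log2 fold changes of 1.84 to 2.51 for *Lgals3bp* and 1.12 to 1.49 for *Lgals9*. *Lgals1*, *Lgals3*, and *Lgals8* passed the test in none of 17 settings. Precision is limited by 3 libraries per group and, for *Lgals4* and the rarer galectins, by depth.

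With the replicate number as a block, *Lgals3bp* had a log2 fold change of 2.28 (edgeR adjusted p = 0.0186), *Lgals9* of 1.30 (edgeR adjusted p = 0.00520), and 220 genes were called, so the block changed no call of a member. After centring on each group, libraries with the same number correlated at 0.0872, 0.0265, and 0.289, and 2 of 3 WT libraries correlated best with their own number. Values centred on 3 libraries per group are too few to decide whether same-numbered libraries are pairs. The labels do not say whether they are, so the main test did not treat the numbers as pairs.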
